A study of Saccharomyces cerevisiae with 18 samples.

Results

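The early meiotic genes of Saccharomyces cerevisiae are the genes that budding yeast switches on as it enters meiosis and premeiotic DNA replication, and that growing cells keep silent. Here 34 of them, chosen by name for their known roles, were followed through a set of histone deacetylase and histone tail mutants. Each of the 34 had at least 1 probe set that named it alone, 38 probe sets in all, among 5656 genes so represented on the array. By role they comprised 5 regulators, 6 genes for making double-strand breaks, 5 chromosome axis genes, 5 strand exchange genes, 8 synapsis genes and 5 genes of chromosome movement, segregation and spore formation.

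In growing cells, the DNA-binding protein Ume6 sits on a short promoter element, URS1, and brings the histone deacetylase Rpd3, in a complex with Sin3, to many of these genes. Rpd3 removes acetyl groups from lysines in the tails that histones H3 and H4 carry at their amino ends. When nutrients run out in a cell that carries both mating types, the activator Ime1 is made, acts through Ume6 and turns the repressed genes on. Ime2, a protein kinase, is one of the earliest products and drives the later steps. The proteins that follow break the DNA (Spo11 and its partners), build the chromosome axis (Hop1, Red1, Rec8), exchange strands (Dmc1 and its helpers) and zip homologues together (Zip1 and the ZMM proteins).

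Total RNA of 18 samples was hybridised to 1-colour Affymetrix YG_S98 arrays, 1 array each, in 8 groups of 1 strain per group. The mutants were an RPD3 deletion (n = 2), an RPD3 deletion joined to a histone H3 without residues 1 to 28, labelled rpd3 delete H3delta(1-28) (n = 2, here the H3 double mutant), an RPD3 deletion joined to H4(K5,8,12,16Q), in which 4 lysines of H4 are glutamines (n = 2, the H4 double mutant), H3delta(1-28) alone (n = 2, the H3 tail deletion), H3(K4,9,14,18,23,27Q) (n = 3, the H3 lysine substitution), H4delta(2-26) (n = 2, the H4 tail deletion) and H4(K5,8,12,16Q) alone (n = 2, the H4 lysine substitution). They were set against wild type (n = 3). The sources used here do not give the medium, the growth phase, the mating type, any allele that all strains share, or whether replicate arrays stand for separate cultures, so that p-values reflect array-to-array spread that may be technical alone. In such bulk RNA, fewer cells that express a gene and less RNA per cell cannot be told apart.

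The RPD3 signal was 9.4 to 80.7 on the 6 arrays of strains labelled as lacking RPD3 and 493.6 to 1001.3 on the other 12, as the labels give it. Within these 12 it was lowest in the H4 tail deletion, at 519.1 and 493.6 against 1001.3, 959.2 and 689.9 in wild type. RPD3 was called lower there in limma's test, against 15.1% of all tested probe sets. Alpha-specific genes were high in wild type, where STE3, the a-factor receptor gene, read 2612, 2659.6 and 2041, while STE2, the alpha-factor receptor gene of a cells, read 48.5, 42.9 and 4.20. Across probe sets, replicate arrays had correlations of 0.958 to 0.990. The H3 double mutant arrays correlated at 0.967 with each other, less than the first did with an H3 tail deletion array (0.971) and the second with an H3 lysine substitution array (0.972). In 3 file headers the strain was not that of the label (the second H3 double mutant array and the second array of each tail deletion). The tail deletion headers named each other's strain, while both arrays were nearest their own labelled replicate (correlations of 0.981 and 0.985), and the H3 double mutant header named a strain of no group. The third wild-type header named an RNA amplification kit. The actin 3' to 5' signal ratio, a mark of RNA quality, was 1.66 and 1.68 with RPD3 deleted, 1.53 and 1.76 in the H3 double mutant, 1.20 and 1.49 in the H4 double mutant, 1.44 and 1.85 in the H3 tail deletion, and 1.37 to 1.41 in wild type. Wild type was sampled on 3 days, 1 of which (day B) it shared with 1 array each of the RPD3 deletion, the H3 tail deletion and the H3 double mutant. The other 4 mutants shared no day with wild type, so that day and genotype cannot be told apart within a day there.

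The signals of these genes were low in wild type. A floor was set at the 25th percentile of all signals (140.2, in the arbitrary units of the table), which 72.5% to 78.9% of all probe sets passed on an array. Of the 34 genes, 24 were under that floor on all 3 wild-type arrays. The number above the floor on an array was 21 and 22 with RPD3 deleted, 21 and 21 in the H3 double mutant, 14 and 14 in the H4 double mutant, 13 and 19 in the H3 tail deletion, 14, 12 and 12 in the H3 lysine substitution, 13 and 11 in the H4 tail deletion, 9 and 11 in the H4 lysine substitution, and 10, 7 and 5 in wild type. Every array of the RPD3 deletion and of the H3 double mutant thus had more of these genes above the floor than any array of another group, and the arrays of the H4 lysine substitution overlapped with wild type. A gene entered the test where at least 2 arrays were above the floor. This left 23 genes tested and 11 not tested: IME4, MER1, REC114, MEI4, MEK1, PCH2, HOP2, MND1, MEI5, NDJ1 and CSM4.

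**Figure D1:**
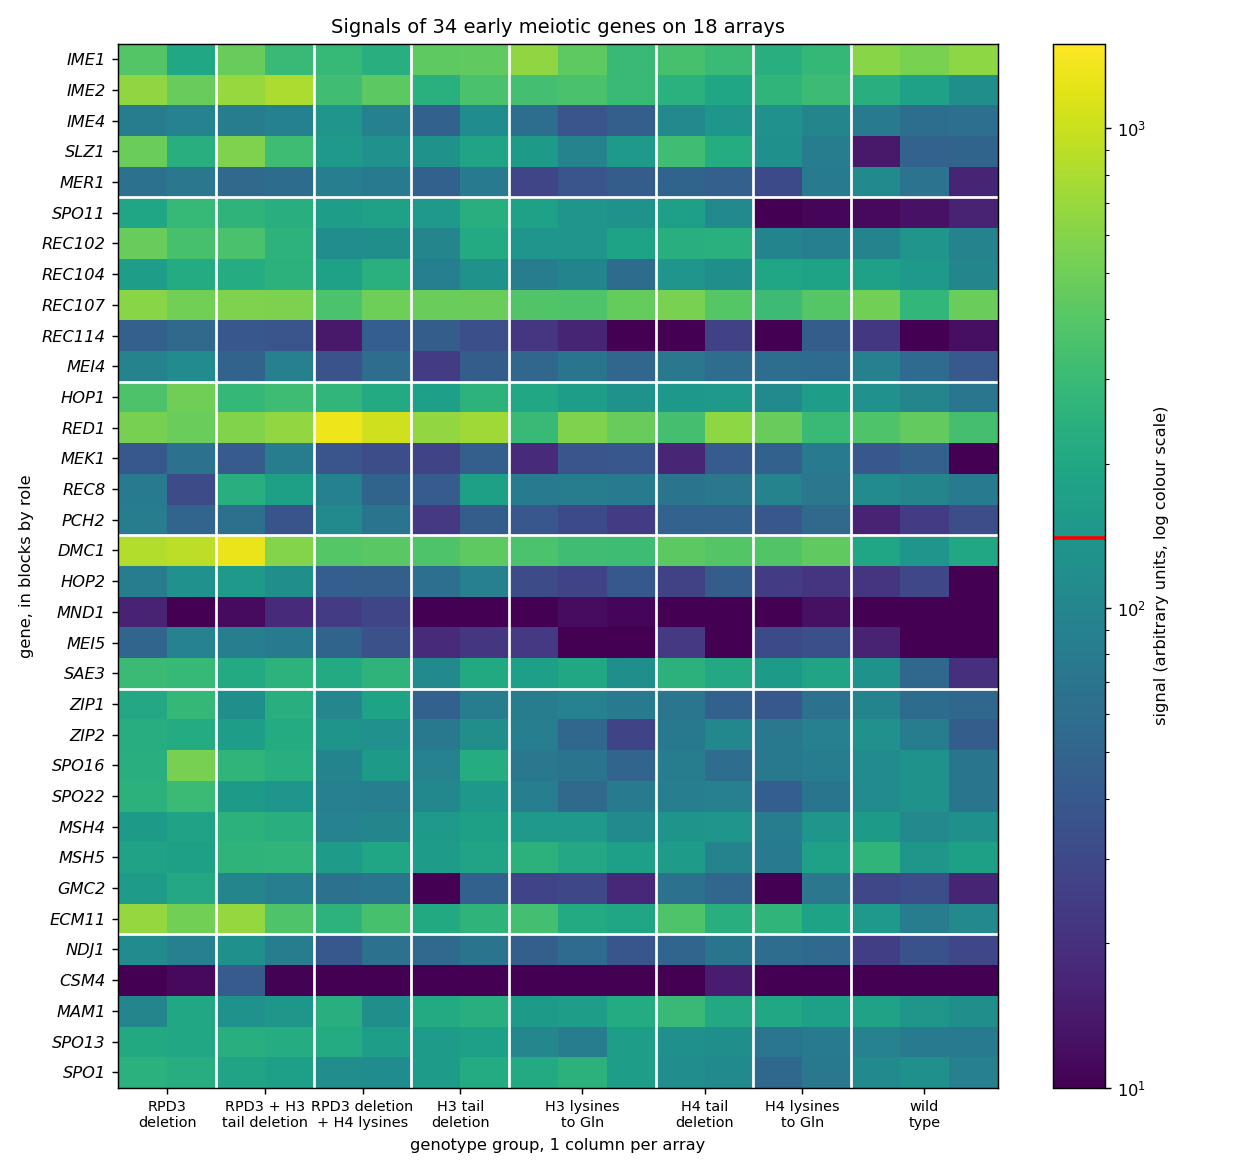
Signal of each of the 34 genes (down, in blocks by role: regulators, breaks, axis, strand exchange, synapsis, segregation) on each of the 18 arrays (across, 1 column per array, grouped by genotype with wild type at the right), in arbitrary units on a log colour scale that saturates at its ends. The red line on the scale is the floor of 140.2; 21 and 22 genes lie above it in the RPD3 deletion, and 10, 7 and 5 in wild type.

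Most of these genes were higher in the RPD3 deletion than in wild type. On the signals as they stand, with no floor, both arrays of the RPD3 deletion were above all 3 wild-type arrays for 26 of 34 genes, and both were below them for 1, IME1. The same split held for 20.5% of all probe sets in the higher and 14.8% in the lower direction. Of the 26 genes, 8 were among the 11 that could not be tested. Among the 23 tested, 15 rose and 1 fell in limma's test at an adjusted p of 0.05, against 11.2% of all tested probe sets called higher and 4.14% called lower. The median log2 change of the 23 was 0.74, beside 0.01 over all tested probe sets. Of the 23, ZIP1, ZIP2 and GMC2 passed the floor only on arrays without RPD3, so that they had to differ if tested at all. For a gene at the floor on all wild-type arrays the fold is a lower bound, given as at least so many fold, from signals raised to the floor. IME2, REC104, DMC1, MSH4, ECM11 and MAM1 had 1 or 2 wild-type arrays under the floor, also raised to it, so that their called rises over wild type are lower bounds too. On day B alone, the 1 RPD3 deletion array was above the 1 wild-type array for 20 of the 23 tested genes, with a median log2 difference of 0.68, beside 47.6% and a median of 0.00 over all tested probe sets. With sampling day as a block in the fit, 7 of the 23 were called, and with the actin ratio as a covariate 14.

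Among the regulators, IME1 fell while IME2 and SLZ1 rose in the RPD3 deletion. IME1, the master activator of meiosis, read 395 and 196 with RPD3 deleted, 466 and 295 in the H3 double mutant, 284 and 238 in the H4 double mutant, 436 and 444 in the H3 tail deletion, 649, 429.6 and 295 in the H3 lysine substitution, 348 and 307 in the H4 tail deletion and 236 and 279 in the H4 lysine substitution, against 612, 547 and 643 in wild type. It was above the floor on all 18 arrays, and all mutant arrays but the first of the H3 lysine substitution were below all wild-type arrays. The log2 change was -1.22 ± 0.33 in the H4 lysine substitution (adjusted p = 0.0162), -1.20 ± 0.33 in the H4 double mutant (adjusted p = 0.0189) and -1.11 ± 0.33 in the RPD3 deletion (adjusted p = 0.0387), and IME1 was called lower in these 3. The call in the RPD3 deletion was lost without the second array of that group (adjusted p = 0.437) and without any 1 of the wild-type arrays (adjusted p = 0.0564 to 0.0829). The calls in the H4 lysine substitution and the H4 double mutant were lost without either of their own arrays (adjusted p = 0.0521 and 0.129 for the substitution, 0.0754 and 0.13 for the double mutant).

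IME2, the meiotic protein kinase gene that Ime1 activates, read 648 and 464 with RPD3 deleted, 695 and 812 in the H3 double mutant and 325 and 426 in the H4 double mutant. It read 241 and 353 in the H3 tail deletion, 337, 355 and 296 in the H3 lysine substitution, 245 and 189 in the H4 tail deletion and 267 and 313 in the H4 lysine substitution, against 229, 176 and 121 in wild type. The RPD3 deletion and H3 double mutant arrays were thus the highest, and only the H4 tail deletion overlapped with wild type. IME2 rose 3.08-fold in the RPD3 deletion (log2 change 1.62 ± 0.26, adjusted p = 0.000837), 4.22-fold in the H3 double mutant, 2.09-fold in the H4 double mutant and 1.84-fold in the H3 lysine substitution. The H4 double mutant lost the IME2 call without its second array (adjusted p = 0.1).

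SLZ1, a meiosis-specific leucine zipper protein gene, was under the floor on all 3 wild-type arrays. It read 482 and 229 with RPD3 deleted, 569 and 315 in the H3 double mutant and 325 and 221 in the H4 tail deletion, where it rose at least 2.37, 3.02 and 1.91-fold, against 14.0, 48.8 and 50.3 in wild type. The other 4 mutants read between 81.4 and 188, above every wild-type array but close to the floor. The call was lost in the RPD3 deletion without its first array (adjusted p = 0.127), and in the H4 tail deletion without its first array (0.235) or the second wild-type array (0.0617). The other regulators stayed under the floor on all 18 arrays. MER1, a splicing factor gene for meiotic introns, read 64.6 and 73.3 with RPD3 deleted against 109, 66.9 and 16.8 in wild type. IME4, an mRNA methyltransferase gene, read 83.3 and 93.0 with RPD3 deleted and 106 and 138 in the H4 tail deletion, against 76.8, 61.2 and 62.8 in wild type.

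Among the break genes, SPO11 and REC102 rose in the RPD3 deletion and the H3 double mutant. SPO11, which encodes the protein that cuts the DNA, read 195 and 287 with RPD3 deleted, 262 and 236 in the H3 double mutant and 163 and 177 in the H4 double mutant. It read 149 and 234 in the H3 tail deletion, 175, 139.6 and 131 in the H3 lysine substitution and 170.2 and 108 in the H4 tail deletion, but 6.20 and 11.0 in the H4 lysine substitution, against 11.4, 12.7 and 16.1 in wild type. Wild type and the H4 lysine substitution therefore lay far below all arrays of the other 6 groups, and most of that distance is under the floor. At the floor of 140.2, SPO11 rose at least 1.69-fold in the RPD3 deletion (adjusted p = 0.0166) and at least 1.77-fold in the H3 double mutant (adjusted p = 0.00689). These calls were lost without the second RPD3 deletion array (adjusted p = 0.248) and without the first H3 double mutant array (0.0532).

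With the floor lowered to the 10th percentile (39.79), SPO11 was called higher than in wild type in 6 mutants. It was at least 5.95-fold higher in the RPD3 deletion, 6.24-fold in the H3 double mutant, 4.27-fold in the H4 double mutant, 4.70-fold in the H3 tail deletion, 3.71-fold in the H3 lysine substitution and 3.41-fold in the H4 tail deletion, all lower bounds since wild type was at that floor too. The adjusted p lay between 2.61e-05 and 0.000434. Of all probe sets tested at that floor, 9.95%, 13.8%, 10.5%, 9.47%, 10.8% and 10.7% were called higher in these comparisons, in the same order. At this floor SPO11 also differed between the 2 H4 mutants with RPD3 intact, by at least 1.77 ± 0.30 on the log2 scale in the tail deletion over the lysine substitution (adjusted p = 0.00503). The H4 double mutant was higher than the H4 lysine substitution by at least 2.10 ± 0.30 (adjusted p = 0.00303). Over all 8926 probe sets tested at that floor, 3.01% and 1.34% were called higher between these H4 groups. SPO11 was singled out after its values were seen.

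REC102, a Spo11 partner, read 464 and 346 with RPD3 deleted, 359 and 257 in the H3 double mutant and 116 and 122 in the H4 double mutant. It read 98.7 and 213 in the H3 tail deletion, 138, 137 and 182 in the H3 lysine substitution, 234 and 243 in the H4 tail deletion and 96.8 and 87.5 in the H4 lysine substitution, against 93.7, 135 and 93.6 in wild type. The H4 double mutant arrays lay inside the wild-type range, whereas all 4 other arrays without RPD3 were clear of it. The rise was at least 2.86-fold in the RPD3 deletion (adjusted p = 0.000224), 2.16-fold in the H3 double mutant and 1.70-fold in the H4 tail deletion, the last lost without either H4 tail deletion array (adjusted p = 0.0521 and 0.0738). REC104, another partner, was called in the H3 double mutant only, at 221 and 249.7 against 177, 152 and 98.8 in wild type (log2 change 0.59 ± 0.15, adjusted p = 0.0109, and 0.0895 without the second array). REC107, which recruits the break machinery to the axis, was above the floor on all 18 arrays and was called in none of the 7 mutants, with log2 changes from -0.21 to 0.47. REC114 and MEI4 stayed under the floor throughout.

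Of the axis genes, HOP1 rose in all 3 strains without RPD3. HOP1, the axis protein that marks unpaired chromosomes, read 371 and 507 with RPD3 deleted, 283 and 314 in the H3 double mutant and 269 and 213 in the H4 double mutant. It read 169 and 254 in the H3 tail deletion, 199, 163 and 131 in the H3 lysine substitution, 144 and 149.5 in the H4 tail deletion and 109 and 167 in the H4 lysine substitution, against 126, 97.2 and 70.9 in wild type. All 6 arrays without RPD3 were above every wild-type array, and so were all arrays of the H3 tail deletion, the H3 lysine substitution and the H4 tail deletion. The RPD3 deletion was the highest of the 8 groups. The rise was at least 3.09-fold in the RPD3 deletion (adjusted p = 0.00017), 2.13-fold in the H3 double mutant and 1.71-fold in the H4 double mutant. The last was lost without the first H4 double mutant array (adjusted p = 0.151).

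RED1, the partner of Hop1 on the axis, was above the floor on all 18 arrays and had its highest signals in the H4 double mutant. It read 1333 and 1048 there, against 467 and 296 in the H4 lysine substitution, hybridised from samples of the same day, and 379, 453 and 343 in wild type. The other mutants read 542 and 478 with RPD3 deleted, 583 and 669 in the H3 double mutant, 664 and 727 with the H3 tail deleted, 291, 569 and 468 in the H3 lysine substitution and 339.6 and 644 with the H4 tail deleted. RED1 rose 3.04-fold over wild type in the H4 double mutant (log2 change 1.60 ± 0.32, adjusted p = 0.00365) and was called in no other mutant. It was 2.32-fold higher in the H4 double mutant than in the RPD3 deletion (log2 change 1.22 ± 0.35, adjusted p = 0.033). That difference missed the threshold without any 1 of the 4 arrays (adjusted p = 0.0631 to 0.187). The rise over wild type missed the threshold without the first H4 double mutant array (adjusted p = 0.0518). REC8, the meiotic cohesin subunit, read 232 and 174 in the H3 double mutant and 80.5 and 31.7 with RPD3 deleted, against 112, 98.4 and 77.6 in wild type, and rose at least 1.43-fold in the H3 double mutant. That call was lost without the first array (adjusted p = 0.0717). REC8 passed the floor on 3 arrays only, both of the H3 double mutant and 1 of the H3 tail deletion. It thus entered the test only through the group where it was called. MEK1, the kinase that acts with Hop1 and Red1, and PCH2, the ATPase that removes Hop1, were under the floor on all 18 arrays.

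The strand exchange genes were led by DMC1, the meiotic recombinase, which rose in all 7 mutants. DMC1 read 841 and 909 with RPD3 deleted, 1293 and 589.5 in the H3 double mutant and 397 and 413 in the H4 double mutant. It read 378 and 431 in the H3 tail deletion, 364, 320.1 and 317 in the H3 lysine substitution, 427 and 393 in the H4 tail deletion and 385 and 441 in the H4 lysine substitution, against 191, 139 and 199 in wild type. No mutant array overlapped with wild type, and the 4 histone mutants with RPD3 lay between wild type and the RPD3 deletion. The fold rise was 5.01 in the RPD3 deletion (log2 change 2.33 ± 0.27, adjusted p = 0.00012), 5.01 in the H3 double mutant, 2.32 in the H4 double mutant, 2.32 in the H3 tail deletion, 1.91 in the H3 lysine substitution, 2.35 in the H4 tail deletion and 2.36 in the H4 lysine substitution. The last 5 had adjusted p between 0.00488 and 0.0139. With sampling day as a block, limma's call was lost in both tail deletions (adjusted p = 0.256 for H3 and 0.356 for H4). With sampling period as a block it was lost in the H3 and H4 lysine substitutions (0.22 and 0.0999). With chip lot as a block the calls were lost in the H3 tail deletion and both lysine substitutions. Their log2 changes were then 1.16, 0.68 (H3) and 0.86 (H4).

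Some of these DMC1 calls rested on 1 array. They were lost in the H3 tail deletion without its second array (adjusted p = 0.0857), in the H3 lysine substitution without the second wild-type array (0.0634), and in the H4 double mutant without either of its own (0.0512 and 0.0504). A second, dimmer DMC1 probe set was called higher in 3 of the 7 mutants, the H3 double mutant (log2 change 1.32 ± 0.28, adjusted p = 0.00441), the H4 double mutant (0.95 ± 0.28, adjusted p = 0.0266) and the H4 lysine substitution (0.89 ± 0.28, adjusted p = 0.0343). In the RPD3 deletion it gave 0.82 ± 0.28 with an adjusted p = 0.0692. The probe sets of this gene thus disagree on the size of the change and on the order of the groups. On the second, the H4 lysine substitution read 332 and 271, beside 228 and 358 with RPD3 deleted. Its arrays of the H3 tail deletion, the H3 lysine substitution and the H4 tail deletion overlapped with wild type.

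SAE3, which helps load Dmc1, was under the floor in wild type (130.1, 53.6 and 19.7). It read 304 and 284 with RPD3 deleted, 216 and 255 in the H3 double mutant, 213 and 261 in the H4 double mutant and 248 and 204 in the H4 tail deletion. In these 4 groups it rose at least 2.10, 1.67, 1.68 and 1.61-fold, with adjusted p between 0.00194 and 0.0164. It was not called in the other 3 (signals of 108 and 209.8 with the H3 tail deleted, 171, 196 and 121 in the H3 lysine substitution and 152 and 187 in the H4 lysine substitution). The call held without each array in turn in the RPD3 deletion, and was lost without the second H3 double mutant array (adjusted p = 0.0989), the second H4 double mutant array (0.118) and the first H4 tail deletion array (0.148). A second SAE3 probe set, at 145 and 231 in the RPD3 deletion, was called in none of the 7. HOP2, MND1 and MEI5, the other factors that work with Dmc1, could not be tested.

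Of the 8 synapsis genes, 6 rose in the RPD3 deletion, against 11.2% of all tested probe sets. ZIP1, ZIP2 and GMC2 among the 6 had to be higher if tested, as they passed the floor only without RPD3. ECM11, which with Gmc2 forms part of the central element between paired chromosomes, read 677 and 514 with RPD3 deleted, 685 and 375 in the H3 double mutant, 256 and 346 in the H4 double mutant and 379 and 237 in the H4 tail deletion, against 152, 84.2 and 107 in wild type. It rose at least 4.10-fold (adjusted p = 0.000693), 3.52-fold, 2.07-fold and 2.08-fold in these 4. Its signals in the other 3 were also above every wild-type array, at 210.4 and 260.0 in the H3 tail deletion, 335, 212 and 193 in the H3 lysine substitution and 265 and 182 in the H4 lysine substitution, and were not called. The calls held without each array in turn in the RPD3 deletion and the H3 double mutant. They were lost without the second wild-type array in the H4 tail deletion (adjusted p = 0.0574) and the H4 double mutant (0.0676), and also with the first H4 tail deletion array left out (0.227) or either H4 double mutant array (0.0661 and 0.196).

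SPO16 and SPO22, also called ZIP4, encode ZMM proteins that stabilise crossover intermediates. SPO16 read 235 and 533 with RPD3 deleted, 267 and 236 in the H3 double mutant and 95.4 and 152 in the H4 double mutant, against 113, 132 and 69.8 in wild type, and rose at least 2.52 and 1.79-fold in the first 2. The H3 double mutant call was lost without either of its arrays (adjusted p = 0.141 and 0.0717) or the second wild-type array (0.0667). SPO22 read 252 and 305 with RPD3 deleted, 153 and 139 in the H3 double mutant, 89.0 and 85.8 in the H4 double mutant and 112, 132 and 69.9 in wild type. It was the member with the smallest adjusted p in the RPD3 deletion, at least 1.98-fold higher (log2 change at least 0.98 ± 0.09, adjusted p = 2.25e-05), and was called in no other mutant. SPO22 passed the floor on 4 arrays only, and signals raised to the floor do not vary. Its small error and its rank by p thus owe in part to the floor. The remaining signals of both genes lay between 44.4 and 224.

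ZIP1, the protein of the zipper's central region, ZIP2, another ZMM protein, and GMC2 rose only slightly above the floor. ZIP1 read 204 and 283 with RPD3 deleted against 95.3, 58.4 and 53.4 in wild type, ZIP2 228 and 217 against 127, 81.5 and 43.7, and GMC2 157 and 204 against 28.8, 33.6 and 16.7. These are rises of at least 1.71, 1.59 and 1.28-fold, the first lost without the second RPD3 deletion array (adjusted p = 0.164), and the GMC2 rise lost without the second (0.0548) or the third (0.055) wild-type array. In the H3 double mutant ZIP2 (167 and 219.5) also rose, at least 1.37-fold, lost without the second array of that group (adjusted p = 0.0682). MSH4, a subunit of the MutS-gamma clamp, was called in the H3 double mutant, at 249 and 237 against 152, 105 and 124 in wild type (log2 change at least 0.75 ± 0.10, adjusted p = 0.000131). Its partner MSH5 was called in none of the 7 mutants, with log2 changes from -0.34 to 0.49.

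Among the segregation genes, SPO13 and SPO1 rose. SPO13, which keeps sister chromatids together in the first division, read 208 and 203 with RPD3 deleted, 234 and 222 in the H3 double mutant and 219 and 164 in the H4 double mutant, against 91.5, 76.7 and 80.2 in wild type. It rose at least 1.47, 1.62 and 1.35-fold in these groups, the last lost without the first array (adjusted p = 0.247). Its other signals were 161 and 168 in the H3 tail deletion, 101, 84.1 and 165 in the H3 lysine substitution, 124 and 122 in the H4 tail deletion and 72.0 and 79.6 in the H4 lysine substitution. SPO1, a phospholipase-like gene needed for spindle pole duplication and spore membranes, read 245 and 225 with RPD3 deleted and 214, 252 and 165 in the H3 lysine substitution, against 107, 123 and 89.1 in wild type.

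SPO1 rose at least 1.67 and 1.48-fold in those groups, and each call missed the threshold without 1 array, the first of the RPD3 deletion (adjusted p = 0.0504) and the second of the H3 lysine substitution (0.0603). SPO1 otherwise read 186 and 170.3 in the H3 double mutant, 116 and 114 in the H4 double mutant, 158 and 218 in the H3 tail deletion, 116 and 109.9 in the H4 tail deletion and 54.2 and 73.9 in the H4 lysine substitution. MAM1, the monopolin subunit that clamps sister kinetochores, was called in the H4 tail deletion, at 301 and 206 against 180.1, 143 and 122 in wild type (adjusted p = 0.0438). That call was lost without the first H4 tail deletion array (adjusted p = 0.353), the second wild-type array (0.112) or the third (0.0852). NDJ1 and CSM4, which tether and move telomeres, stayed under the floor.

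**Figure D2:**
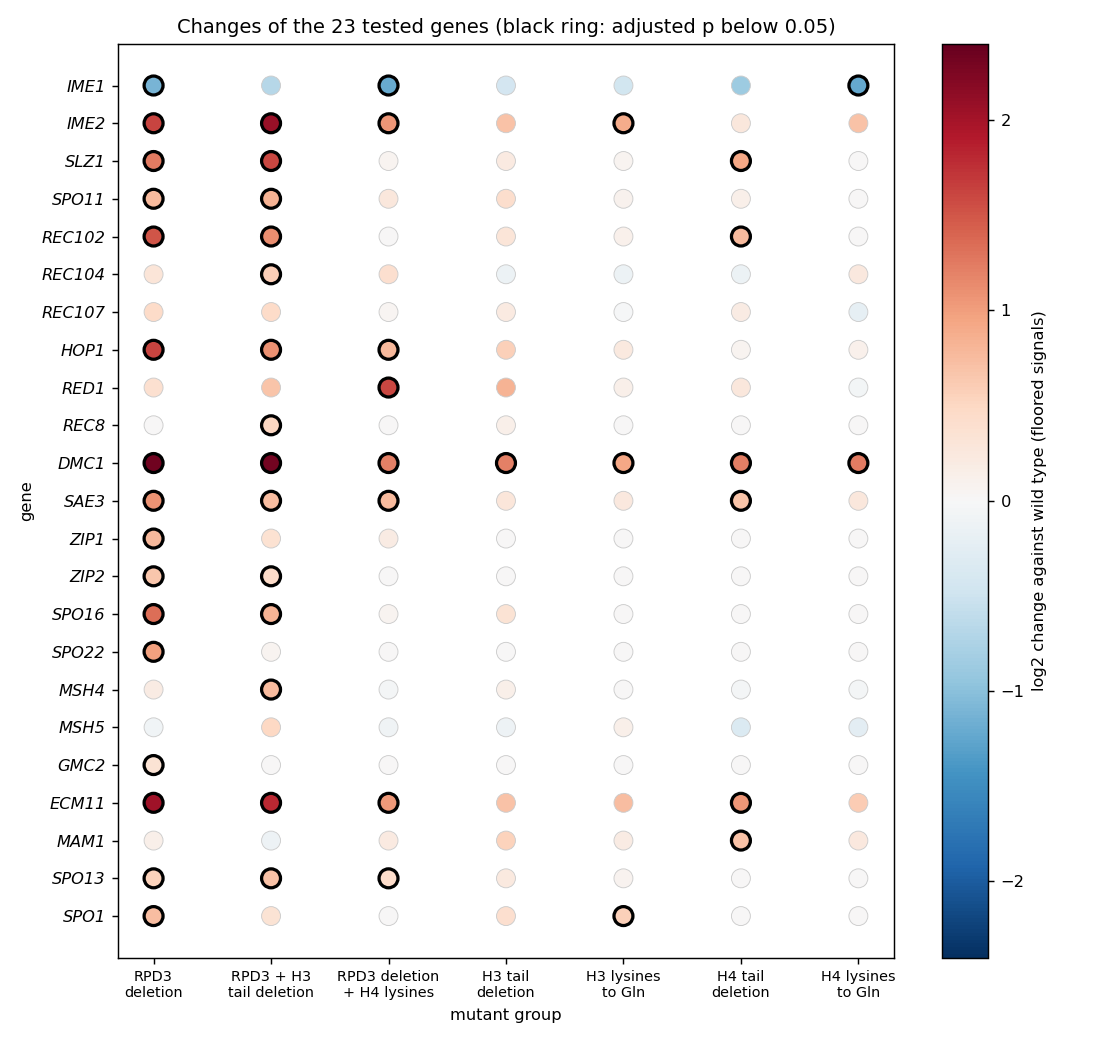
Log2 change against wild type (colour) of the 23 tested genes (down) in the 7 mutants (across), from signals raised to the floor. A black ring marks an adjusted p below 0.05 in limma's test; DMC1 is ringed in all 7, and IME1 is blue with a ring in 3.

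The histone mutants that kept RPD3 raised few of these genes in the test. In the H3 tail deletion, 1 of 23 (DMC1) rose and 0 fell, against 10.7% of all tested probe sets called higher and 2.98% called lower. In the H3 lysine substitution, 3 rose (IME2, DMC1 and SPO1) and 0 fell, against 11.8% and 13.7%. In the H4 tail deletion, 6 rose (SLZ1, REC102, DMC1, SAE3, ECM11 and MAM1) and 0 fell, against 12.3% called higher and 15.1% called lower. In the H4 lysine substitution, 1 rose (DMC1) and 1 fell (IME1), against 8.69% and 16.5%. As shares of the 23, the rises are near or below the background of their comparison, except in the H4 tail deletion (26.1% of the 23). RPD3 itself was also called lower in the H4 tail deletion, and its part in these rises was not tested. With the floor at the 10th percentile and 32 genes tested, 18.8% rose in the H3 tail deletion (against 9.47% of all probe sets), 21.9% in the H3 lysine substitution (10.8%), 18.8% in the H4 tail deletion (10.7%) and 9.38% in the H4 lysine substitution (7.71%). The count in the H4 tail deletion was 1 without its first array and 3 without the second wild-type array. In the H3 tail deletion the count moved in both directions as single arrays were left out. On day B alone, the H3 tail deletion array was above the wild-type array for 16 of the 23 and below it for 4. The median log2 difference was 0.39, beside 50.1% above, 45.3% below and a median of 0.00 over all tested probe sets. That array is 1 of those whose header names another strain. In the H4 lysine substitution, leaving out either of its arrays left 1 call.

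On the signals with no floor, all arrays of the mutant were above all wild-type arrays for 15 of the 34 genes in the H3 tail deletion (21.5% of all probe sets), 9 in the H3 lysine substitution (15.8%), 13 in the H4 tail deletion (20.5%) and 12 in the H4 lysine substitution (18.4%). They were below for 1 (12.4%), 2 (21.1%), 2 (26.1%) and 4 (27.5%). The median log2 change of the 23 tested genes was 0.23, 0.08, 0.00 and 0.00 in these groups, beside 0.00, -0.08, -0.05 and -0.07 over all tested probe sets. The RPD3 deletion was set against the H3 tail deletion directly, from samples of the same days. REC102, HOP1, ZIP2 and SPO22 were higher in the RPD3 deletion, 4 of 23 against 0.904% of all probe sets, and 0 were lower, against 1.46%. Their log2 differences were 1.22 ± 0.21, 1.06 ± 0.22, at least 0.67 ± 0.11, and 0.96 ± 0.10, with adjusted p between 6.13e-05 and 0.0191. ZIP2 passed the floor only on arrays without RPD3, so that it had to differ here. Within day A 19 and within day B 18 of the 23 were higher in the RPD3 deletion array, beside 52.1% and 46% of all tested probe sets. The count was 2 without the first H3 tail deletion array.

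The H4 tail deletion and the H4 lysine substitution share the loss of the 4 H4 lysines in different ways, and 0 of the 23 genes differed between them, against 3.63% of all tested probe sets called higher and 1.82% called lower in limma's test. At an unadjusted p below 0.05, 3 of them differed, beside 18.9% of all tested probe sets. Genes that mark mating type moved beside these results. HMRA1, the a1 regulator gene of a silent mating cassette (its probe set may also read the active copy), read 975 and 462 in the H4 tail deletion and 274 and 309 in the H4 lysine substitution, against 146, 64.0 and 48.2 in wild type. Of 9 haploid-specific genes, 9 fell in the H4 tail deletion (against 15.1% of all tested probe sets), 7 in the H4 lysine substitution (16.5%), 5 in the H3 double mutant (8.14%), 5 in the H4 double mutant (12.9%), 4 in the H3 lysine substitution (13.7%) and 2 in the H3 tail deletion (2.98%). RME1, a repressor of IME1 that the a1-alpha2 regulator shuts off, was among the 9, at 50.7 and 153 in the H4 tail deletion against 1849, 424 and 1498 in wild type (log2 change -2.85 ± 0.46, adjusted p = 0.000592). In the RPD3 deletion 2 of the 9 haploid genes fell and 1 rose, and HMRA1 read 10.8 and 19.8. The part of mating type in the meiotic gene values was not tested.

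More of these genes rose over wild type in the H3 double mutant than in the H4 double mutant, and the 2 were not set against each other. In the H3 double mutant, 14 of 23 rose over wild type and 0 fell, against 15.4% of all tested probe sets called higher and 8.14% called lower. REC8 among the 14 was tested only through this group. Both its arrays were above all wild-type arrays for 28 of the 34 genes, against 24.3% of all probe sets. In the H4 double mutant, 7 of 23 rose and 1 fell, against 11.6% and 12.9%, and 17 of the 34 were above wild type on both arrays, against 22.3%. The median log2 change of the 23 was 0.68 in the H3 double mutant and 0.06 in the H4 double mutant, beside 0.03 and -0.03 over all probe sets. Without the 3 arrays whose headers name another strain, which leaves 1 H3 double mutant array, 9 of the 22 genes then tested were called. The H4 double mutant count was 3 without either of its arrays. On day B alone, the H3 double mutant array was above the wild-type array for 18 of the 23, with a median log2 difference of 0.66, beside 45.7% and a median of -0.02 over all tested probe sets. The H4 double mutant arrays shared no sampling day and no chip lot with wild type, so that day and genotype cannot be told apart there. Fewer genes were called in the H4 double mutant with chip lot or sampling period as a block, as given below.

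Set against the RPD3 deletion itself, the H4 double mutant was lower for 9 of the 23 genes and higher for 1, against 12% and 5.26% of all tested probe sets. The 9 were SLZ1, REC102, HOP1, DMC1, ZIP2, SPO16, SPO22, GMC2 and SPO1, and the 1 was RED1. The log2 difference was -1.11 ± 0.30 for DMC1, -1.28 ± 0.28 for SPO16, -1.19 ± 0.31 for SLZ1 and -0.86 ± 0.22 for HOP1, with adjusted p between 0.00993 and 0.0249. The other 5 were at the floor in the H4 double mutant, where REC102 was at least 2.86-fold, SPO22 1.98-fold, SPO1 1.67-fold, ZIP2 1.59-fold and GMC2 1.28-fold lower. Wild type was at the floor for these 5 too, so that each value equals the rise of the RPD3 deletion over wild type. GMC2 passed the floor only on the 2 arrays of the RPD3 deletion, so that it had to be lower here if tested at all. The second DMC1 probe set was not lower, at 0.13 ± 0.31 in the H4 double mutant over the RPD3 deletion (adjusted p = 0.807). These 2 groups shared no sampling day and no chip lot. With chip lot as a block 0 genes were called and with sampling period as a block 1, while the log2 difference with lot as a block was -1.44 for DMC1, -1.55 for SPO16, -1.03 for SLZ1 and -1.45 for HOP1. The count was 4 without the second RPD3 deletion array or either H4 double mutant array.

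The H3 double mutant was higher than the RPD3 deletion for 2 of the 23 genes and lower for 1, against 4.06% and 3.17% of all tested probe sets. SPO22 was lower, at 153 and 139 against 252 and 305 (log2 difference -0.92 ± 0.10, adjusted p = 8.3e-05). MSH4 was higher, at 249 and 237 against 153 and 179 (0.55 ± 0.11, adjusted p = 0.00738), and REC8 was at least 1.43-fold higher (adjusted p = 0.0239). The REC8 call was lost without either RPD3 deletion array (adjusted p = 0.067 and 0.135) or the first H3 double mutant array (0.106). Without the H3 double mutant arrays REC8 would not have been tested, so that its call is tied to the filter. Leaving out each array in turn gave 2 to 5 genes, the 5 without the second H3 double mutant array.

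**Figure D3:**
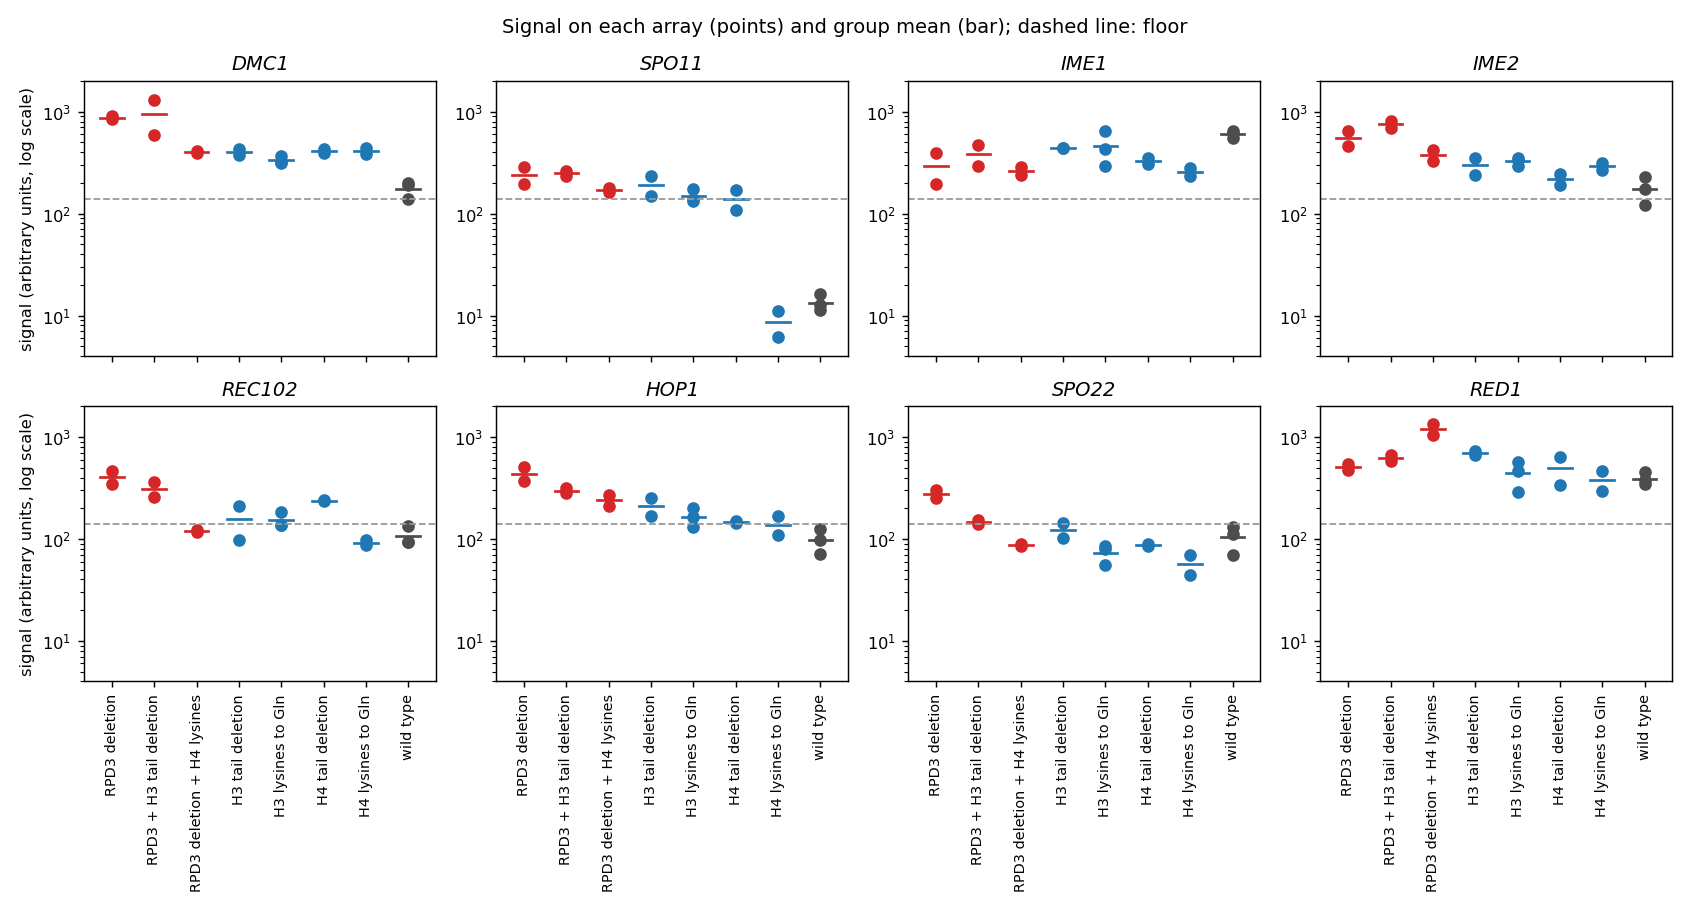
Signal (arbitrary units, log axis) of 8 of the genes on each array (points), with the group mean (bar) and the floor of 140.2 (dashed), in the 3 strains without RPD3 (red), the 4 histone mutants with RPD3 (blue) and wild type (grey, at the right). DMC1 is above wild type in every mutant, SPO11 is far under the floor in the H4 lysine substitution and in wild type, and RED1 is highest in the H4 double mutant.

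Each double mutant was also set against its own histone mutant, which gives the effect of losing RPD3 with that histone. With the H3 tail deleted, 4 of 23 genes rose on loss of RPD3, against 1.07% of all tested probe sets, and 0 fell, against 0.268%. IME2 read 695 and 812 against 241 and 353 in the H3 tail deletion (log2 change 1.37 ± 0.28, adjusted p = 0.0291). SLZ1 read 569 and 315 against 129 and 188 (1.38 ± 0.31, adjusted p = 0.0464). REC104 read 221 and 249.7 against 87.2 and 128, at least 1.68-fold higher, and MSH4 read 249 and 237 against 149 and 172 (0.60 ± 0.11, adjusted p = 0.0131). Both arrays of the H3 double mutant were above both of the H3 tail deletion for 24 of the 34 genes, against 20.2% of all probe sets. Within day A 19 and within day B 17 of the 23 were higher in the double mutant, with median log2 differences of 0.66 and 0.28, beside 53.5% and 42.6% of all tested probe sets, with medians of 0.04 and -0.05. Of these 4 calls, 0 were made at the lower floor, with the first H3 tail deletion array left out or without the first H3 double mutant array, where ZIP2 was called instead. MSH4 was the 1 gene called without the second H3 tail deletion array.

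With the 4 H4 lysines substituted, 1 of 23 genes, RED1, rose on loss of RPD3 and 0 fell, against 2.17% and 1.26% of all tested probe sets. The log2 change of RED1 was 1.67 ± 0.35 (adjusted p = 0.021), with all 4 arrays from 1 day. It was lost without the second H4 lysine substitution array (adjusted p = 0.185) or either H4 double mutant array (0.186 and 0.0779). The log2 difference of DMC1 was -0.02 ± 0.30, with 397 and 413 in the H4 double mutant and 385 and 441 in the H4 lysine substitution. Of the 23, 14 were higher in the H4 double mutant, 2 lower and 7 at the floor in both, with a median difference of 0.06, beside 56.1% higher, 38.9% lower and a median of 0.07 over all tested probe sets.

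Whether the loss of RPD3 acted differently on each gene with altered histones was tested as an interaction, the log2 effect of losing RPD3 with the altered histone minus that with wild-type histones. With the H3 tail deleted, the effect was smaller for 2 of 23 genes, HOP1 and SPO22, against 3.92% of all tested probe sets, and larger for 0, against 1.26%. With the H4 lysines substituted it was smaller for 4 genes, REC102, DMC1, ZIP2 and SPO22, against 2.2%, and larger for 0, against 0.968%. The largest was DMC1 with the H4 lysines substituted, at -2.35 ± 0.41 (adjusted p = 0.00814). ECM11 (-1.60 ± 0.46, adjusted p = 0.0837), IME2 (-1.26 ± 0.38, adjusted p = 0.0956) and RED1 (1.28 ± 0.48, adjusted p = 0.175) did not pass. For REC102, ZIP2 and SPO22 with the H4 lysines substituted, both H4 groups and wild type were wholly at the floor, so that these 3 values are the rise in the RPD3 deletion with its sign turned and measure no difference of their own. Wild type was also at the floor for HOP1 and SPO22 in the H3 interaction. DMC1 alone had arrays above the floor in all 4 groups of its interaction. All of these comparisons share the RPD3 deletion and wild-type arrays.

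**Figure D4:**
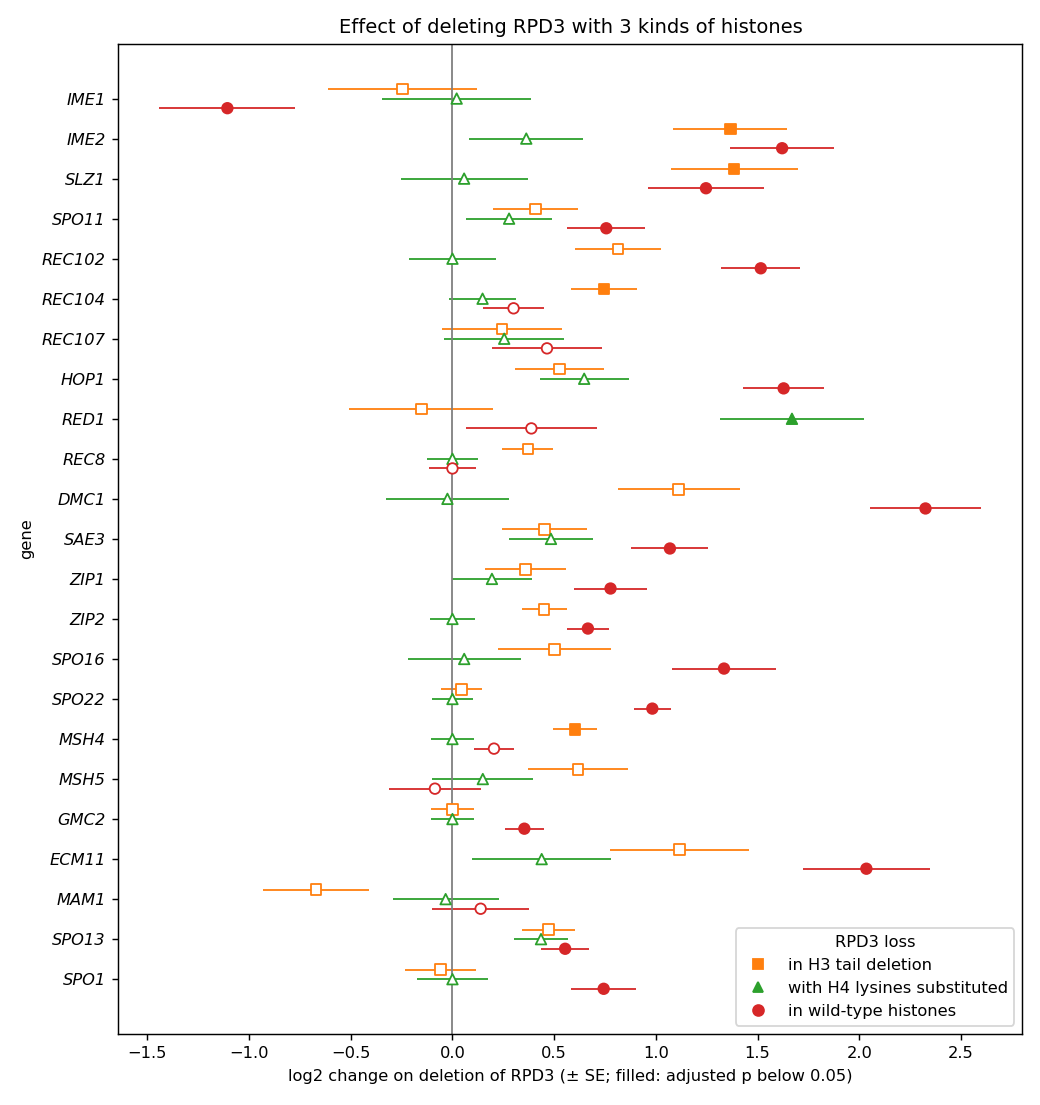
Log2 change on loss of RPD3 (across, ± SE of limma) for each of the 23 tested genes (down), with the H3 tail deleted (squares), with the H4 lysines substituted (triangles) and with wild-type histones (circles). Filled symbols have an adjusted p below 0.05: 16 circles, 4 squares and 1 triangle.

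Genes around the same pathway gave the following counts. Of 17 genes that regulate entry into meiosis, 2 rose (RIM11 and RIM4) and 3 fell (KAR4, SUM1 and RPD3 itself) in the RPD3 deletion. This and the next counts in the RPD3 deletion stand against 11.2% of all tested probe sets called higher and 4.14% called lower. KAR4 was called lower in every mutant, at 303 and 537.5 with RPD3 deleted against 963, 2125 and 1881.5 in wild type. MUM2 was called lower wherever H4 was altered and with the H3 lysines substituted, where SUM1 fell too. RIM11 was also called higher wherever H3 was altered. RIM15 was called higher in each mutant except the RPD3 deletion and the one without the H4 tail. UME6, the repressor that recruits Rpd3, was 0.41 ± 0.25 in the RPD3 deletion (adjusted p = 0.33), and rose by 0.82 ± 0.25 in the H3 double mutant (adjusted p = 0.031) and 0.94 ± 0.25 in the H4 double mutant (adjusted p = 0.0165). RIM4, a translational regulator of meiotic genes, rose in the RPD3 deletion (1.32 ± 0.38), the H4 double mutant (2.88 ± 0.38), the H4 tail deletion (2.19 ± 0.38) and the H4 lysine substitution (2.26 ± 0.38), with adjusted p of 0.0304 or less. Of 9 other genes listed as having a URS1 element and with roles outside meiosis, INO1, CHO1, OPI3 and POT1 rose in the RPD3 deletion and 0 fell, with a median log2 change of 0.41. The same genes rose in the H3 tail deletion, where RPD3 was intact, with a median of 0.70. In every mutant 3 to 5 of the 9 rose, OPI3 and POT1 each time, against the shares of all probe sets called higher given above. Of 12 tested recombination genes that growing cells also use, MRE11 rose and 0 fell, with a median of 0.30. Of 5 further meiotic genes tested, CSM1, a monopolin subunit, rose in the RPD3 deletion and 0 fell. Of 4 alpha-specific genes, 3 fell in the RPD3 deletion, 4 in the H3 double mutant and the H4 tail deletion, 3 each in the H4 double mutant, the H3 tail deletion and the H3 lysine substitution, and 1 in the H4 lysine substitution, against the shares of all probe sets called lower given above for each mutant. In the RPD3 deletion, 1 of the 4 tested a-specific genes, STE6, rose and 0 fell.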

How the data were processed

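Total RNA of 18 yeast samples in 8 groups was read on 1-colour Affymetrix YG_S98 arrays. Probe set signals were deposited as linear intensity in arbitrary units, which the authors had scaled to a common 2% trimmed mean, as the values show. The sources used here do not name the software. Run settings (unit: other) gave chip type, lot and a strain note, per the file headers. Each array was rescaled to the common 2% trimmed mean, signals under the pooled 25th percentile (140.2) were raised to it, and log2 was taken. Probe sets above the floor on at least 2 arrays were tested (7850 of 9275, after leaving out 60 controls; 6504 named 1 gene, 328 several and 2443 none). All 6504 were matched by identifier to the R64 gene table, used for names and neighbours.

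limma 3.58.1 in R 4.3.3 fitted group means over all 18 arrays (10 residual and 3.76 prior degrees of freedom, trended variance), with two-sided tests and Benjamini-Hochberg adjustment over the 7850 probe sets within each of 15 contrasts, called at 0.05. The fit was tested on simulated data. A gene with several probe sets (DMC1, REC107, SAE3 and MEI4) was read from the one with the highest mean signal. Errors of log2 changes are limma's standard errors. Signals raised to the floor do not vary, so that errors of genes at the floor in most groups understate the spread between arrays. The number of arrays limits the precision. The members, lists and tests were chosen with earlier results of these data known. Every gene is accounted for by name; those called in at least 2 of the 7 comparisons with wild type (13 genes) are given on every array, and SPO11, RED1, SPO22 and the genes of the closing observations were in part picked for their values. Counts without overlap under other scalings were added after seeing the data and stayed within 1.5 times. Alternatives were median centring, quantile normalisation, other floors, no filter, no variance trend, blocks for day, period, lot and replicate number, the actin ratio as a covariate, the contrast's groups alone and leaving out arrays. Coordinates and promoter sequences were not used here.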

Additional observations from a re-analysis of the deposited data

Results flagged for a closer look

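In limma's interaction test across all probe sets, 6 values for the effect of losing RPD3 with an altered histone against that with wild-type histones passed the threshold. For 3 of them, REC102, ZIP2 and SPO22 with the H4 lysines substituted, both H4 groups and wild type were wholly at the floor, so that the value restates the rise in the RPD3 deletion with its sign turned and measures no difference of its own. DMC1 rose by 2.33 ± 0.27 on the log2 scale on loss of RPD3 with wild-type histones and the value was -0.02 ± 0.30 with the H4 lysines substituted, an interaction of -2.35 ± 0.41 (adjusted p = 0.00814, 0.00585 to 0.0949 over the alternatives run). The call was lost in 1 of these, with sampling day as a block. The 4 arrays with the H4 lysines substituted read 385 to 441. The second DMC1 probe set gave -0.76 ± 0.42 (adjusted p = 0.389), which was not called.

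REC102 had an H4 interaction of -1.52 ± 0.29 (adjusted p = 0.0141, 0.0132 to 0.134 over the alternatives), lost without the second H4 lysine substitution array (0.0615) or either H4 double mutant array (0.0544 and 0.0579). SPO22 had an H4 interaction of -0.98 ± 0.14 (adjusted p = 0.00323, 0.000384 to 0.427 over the alternatives) and an H3 interaction of -0.94 ± 0.14 (adjusted p = 0.00347, 0.000609 to 0.157). Its calls held without each array in turn and were lost at the lower floor (0.427 for H4 and 0.157 for H3). Both SPO22 calls were also lost with only the groups of the contrast in the fit (0.0685 for H4 and 0.137 for H3). The H3 call was lost as well without the arrays whose header names another strain, where the value was -0.86. ZIP2 had an H4 interaction of -0.67 ± 0.15 (adjusted p = 0.0304, 0.0141 to 0.551), and HOP1 an H3 interaction of -1.10 ± 0.30 (adjusted p = 0.0481, 0.00962 to 0.316). ZIP2 lost the call without the second wild-type array (0.0515) or any 1 array of the RPD3 deletion or the 2 H4 groups (0.0707 to 0.0978). HOP1 lost it without any 1 of the wild-type arrays (0.053 to 0.0762), the second RPD3 deletion array (0.205), the second H3 tail deletion array (0.163) or either H3 double mutant array (0.0749 and 0.114).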

How the results depend on the processing

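The cause of each shift below was not tested, apart from what the setting itself removes. The count of genes called among the 23 was 16 in the RPD3 deletion, 1 in the H3 tail deletion, 3 in the H3 lysine substitution, 6 in the H4 tail deletion, 2 in the H4 lysine substitution, 14 in the H3 double mutant, 8 in the H4 double mutant, 4 in the H3 double mutant against the H3 tail deletion, 1 in the H4 double mutant against the H4 lysine substitution, 3 in the H3 double mutant against the RPD3 deletion, 10 in the H4 double mutant against the RPD3 deletion, 0 in the H4 tail deletion against the H4 lysine substitution, 4 in the RPD3 deletion against the H3 tail deletion, 2 in the H3 interaction and 4 in the H4 interaction, where a single mutant named stands for its comparison with wild type. Counts within 1.5 times of these are not repeated. With the floor at the 10th percentile the counts were 6 in the H3 tail deletion, 8 in the H3 lysine substitution, 4 in the H4 lysine substitution, 0 in the H3 double mutant against the H3 tail deletion, 3 in the H4 double mutant against the H4 lysine substitution, 1 in the H3 double mutant against the RPD3 deletion, 2 in the H4 tail deletion against the H4 lysine substitution and 1 in the H3 interaction. With the floor at the 40th percentile, which leaves fewer of these genes to test, they were 6 in the RPD3 deletion, 0 in the H3 tail deletion, 0 in the H3 lysine substitution, 1 in the H4 tail deletion, 1 in the H4 lysine substitution, 3 in the H3 double mutant, 2 in the H4 double mutant, 2 in the H3 double mutant against the H3 tail deletion, 1 in the H3 double mutant against the RPD3 deletion, 6 in the H4 double mutant against the RPD3 deletion, 0 in the H3 interaction and 2 in the H4 interaction. Median centring gave 4 in the H4 lysine substitution and 2 in the H4 tail deletion against the H4 lysine substitution, and quantile normalisation 1 in the H4 tail deletion against the H4 lysine substitution and 7 in the RPD3 deletion against the H3 tail deletion. With no filter the count was 1 in the H3 interaction, and with no variance trend 2 in the H3 double mutant against the H3 tail deletion and 1 in the H3 interaction.

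With sampling day as a block the counts were 7 in the RPD3 deletion, 0 in the H3 tail deletion, 0 in the H4 tail deletion, 6 in the H3 double mutant, 1 in the H3 double mutant against the H3 tail deletion, 1 in the H3 interaction and 1 in the H4 interaction. The H3 lysine substitution, the H4 lysine substitution and the H4 double mutant could not be set against wild type in that fit, nor could 2 comparisons between mutants. With sampling period as a block they were 1 in the H3 lysine substitution, 0 in the H4 lysine substitution, 2 in the H4 double mutant, 1 in the H4 double mutant against the RPD3 deletion and 1 in the H3 interaction. With chip lot as a block they were 0 in the H3 lysine substitution, 1 in the H4 tail deletion, 0 in the H4 lysine substitution, 1 in the H4 double mutant, 1 in the H3 double mutant against the H3 tail deletion, 0 in the H4 double mutant against the RPD3 deletion and 2 in the H4 interaction. With the actin ratio as a covariate they were 2 in the H3 tail deletion, 2 in the H4 double mutant against the H4 lysine substitution and 6 in the H4 double mutant against the RPD3 deletion. Without the arrays whose header names another strain they were 9 in the H3 double mutant and 0 in the H3 interaction. With only the groups of the contrast in the fit, which has fewer residual degrees of freedom, they were 7 in the RPD3 deletion, 0 in the H3 tail deletion, 8 in the H3 double mutant, 0 in the H3 double mutant against the H3 tail deletion, 0 in the H3 double mutant against the RPD3 deletion, 6 in the H4 double mutant against the RPD3 deletion, 0 in the RPD3 deletion against the H3 tail deletion, 0 in the H3 interaction and 2 in the H4 interaction.

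Replicate numbers mark a shared sampling day in the RPD3 deletion, the H3 tail deletion and the H3 double mutant, where same-numbered arrays deviated together with r = 0.283 for the H3 double mutant and its histone mutant, 0.342 for the RPD3 deletion and the H3 tail deletion, and -0.0475 for the H3 double mutant and the RPD3 deletion. Elsewhere the numbers are only names. With the replicate block the count was 1 in the H3 interaction, where HOP1 missed the threshold (adjusted p = 0.084), and 4 in the H3 lysine substitution, 7 in the H4 tail deletion, 3 in the H4 interaction, 6 in the RPD3 deletion against the H3 tail deletion and 12 in the H4 double mutant against the RPD3 deletion. The other counts were those of the fit without the block.

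Leaving out each array in turn gave counts of 12 to 15 in the RPD3 deletion, 0 to 4 in the H3 tail deletion, 2 to 3 in the H3 lysine substitution, 1 to 6 in the H4 tail deletion, 1 to 3 in the H4 lysine substitution, 10 to 15 in the H3 double mutant, 3 to 9 in the H4 double mutant, 0 to 4 in the H3 double mutant against the H3 tail deletion, 0 to 1 in the H4 double mutant against the H4 lysine substitution, 2 to 5 in the H3 double mutant against the RPD3 deletion, 4 to 7 in the H4 double mutant against the RPD3 deletion, 0 to 0 in the H4 tail deletion against the H4 lysine substitution, 2 to 5 in the RPD3 deletion against the H3 tail deletion, 1 to 3 in the H3 interaction and 2 to 5 in the H4 interaction, where a group left with 1 array was assumed to vary like the others. Of 1343 values of the 78 called changes under these alternatives, 1008 kept the call, 335 lost it and 0 turned round. Signal near background limits what can be read: 11 of the 34 genes had no test, and folds against groups at the floor are bounds.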

Other observations

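A lower floor (39.79) brings several of the dimmest genes into the test, where 32 of the 34 genes could be tested. HOP2, which works with Mnd1 in strand exchange, read 83.1 and 126 in the RPD3 deletion and 147 and 121 in the H3 double mutant, against 21.4, 29.0 and 9.40 in wild type, at least 2.57-fold and 3.34-fold higher (adjusted p = 0.000928 and 0.000101). MEI5, which acts with Sae3, read 51.0 and 91.4 in the RPD3 deletion and 85.8 and 81.0 in the H3 double mutant, against 16.0, 7.00 and 2.90 in wild type (adjusted p = 0.0302 and 0.00343). MEI5 passed the lower floor only on arrays without RPD3, so that it had to differ if tested at all. NDJ1, a meiotic telomere protein gene, read 112 and 88.3 in the RPD3 deletion and 124 and 82.7 in the H3 double mutant, against 25.2, 35.4 and 29.2 in wild type (adjusted p = 0.00456 and 0.00275). In the H4 double mutant the 3 genes read 44.7 and 45.8 (HOP2), 49.9 and 34.9 (MEI5) and 39.9 and 65.4 (NDJ1), and none of them was called there. HOP2 was also called higher than in wild type in the H3 tail deletion, at 62.7 and 88.9. NDJ1 read 38.5 to 70.3 in the histone mutants with RPD3, above every wild-type array, but was not called in them. PCH2 was called higher than in wild type in the H4 double mutant alone, at 107 and 68.1. At that floor 18 of the 32 rose in the RPD3 deletion and 17 in the H3 double mutant, against 9.95% and 13.8% of all probe sets.

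SPO22 and HOP1 are neighbours on chromosome IX with no gene between them in the R64 gene table, and are read away from each other (YIL073C and YIL072W). Both rose in the RPD3 deletion. In the H4 double mutant HOP1 read 269 and 213 and was called higher than in wild type, whereas SPO22 read 89.0 and 85.8, under the floor as on its wild-type arrays (112, 132 and 69.9). The difference between the 2 genes was not tested.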
